A study of Homo sapiens with 8 samples.

Results

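The genes described here encode the factors that start and extend protein synthesis and the aminoacyl-tRNA synthetases that charge tRNAs with amino acids. They were taken by symbol: every entry of the deposited expression table whose gene symbol begins with EIF1 to EIF6 or with EEF1 or EEF2, or is a one-letter tRNA synthetase symbol of the cytosolic (ARS) or mitochondrial (ARS2) series or EPRS, with the regulatory kinases left out. This gave 85 entries for 79 genes, of 20589 entries for 18190 genes in all, an entry being 1 probe or the average of a few. The array carries older symbols, so 5 of the entries, EIF2C1 to EIF2C4, are Argonaute proteins (now AGO1 to AGO4) that bind small RNAs. They match the rule but are not initiation factors and are counted apart.

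The cells were MCF10A-5E, a clone of the non-tumorigenic human breast epithelial line MCF10A, grown on Matrigel with EGF into hollowing spheres called acini. At day 6, about 50 outer cells that touched the extracellular matrix and, separately, about 50 inner cells without that contact were cut from sections by laser microdissection. The RNA was amplified by poly(A) PCR, which copies mRNAs from their 3′ ends, and hybridised to Illumina bead arrays, giving 4 outer arrays and 4 inner arrays. All 8 arrays come from 1 clone, 1 medium and 1 day of growth. The series describes the amplification as done in quadruplicate, and nothing states that the 4 arrays of a group came from separate cultures. The p-values below therefore measure the spread between these arrays, which may be technical. Each array is a pool of cells, so a smaller number of cells using a gene and less of its mRNA per cell cannot be told apart.

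Protein synthesis begins when eIF2 carries the initiator tRNA to the small ribosomal subunit and the eIF4 factors bring the capped mRNA. eIF3 holds these parts together, eIF1 and eIF1A watch over start codon choice, and eIF5B joins the large subunit. eEF1 then delivers each charged tRNA and eEF2 moves the ribosome along. In epithelial cells growth factor signalling through mTOR acts on this machinery in part by releasing eIF4E from its binding proteins, and many of the mRNAs for translation factors begin with a run of pyrimidines that mTOR signalling acts on.

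A level here is a background-corrected, quantile-normalised log2 intensity, and a difference is the mean of the outer arrays minus the mean of the inner arrays, with 4 arrays in each group throughout. An entry was tested if its intensity exceeded the array's background on at least 4 arrays. Of the 85 entries, 72 were tested, as were 7078 of all entries. Mean intensity per array lay between 344.4 and 533.0, and 6775 to 7367 entries per array were above background. The levels correlated at 0.759 to 0.776 within a group and at 0.746 to 0.769 between groups (Pearson, over tested entries of each pair of arrays), so arrays of a group were hardly more alike than arrays of different groups. Of the basal breast epithelial markers, KRT5, KRT14, KRT17, TP63, LAMB3 and ITGB4 had tested entries, while CDH1 was above background on 0 arrays. None of the 4 endothelial and none of the leukocyte markers had a tested entry, although the monocyte gene CD14 was above background on 0 outer arrays and 3 inner arrays. The fibroblast markers COL1A2 and DCN were tested, and 1 DCN probe was above background on all 8 arrays at 11.41 ± 0.69 in outer cells and 11.16 ± 0.68 in inner cells (SD, n = 4 each). The other 5 of the 7 fibroblast entries were not tested: COL1A1, COL3A1 and 1 DCN probe were above background on 1 or 2 arrays, and PDGFRB and another DCN probe on 0. All 8 arrays come from 1 epithelial clone, as given above, and the source of the fibroblast and monocyte marker signals was not tested.

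None of the 72 tested entries passed an adjusted p of 0.05 (limma, Benjamini-Hochberg over all 7078 entries), where 4 of the 7078 (0.0565%) did. At an unadjusted p under 0.05, 4 of the 72 stood higher in outer cells (PARS2, EIF4G1, EIF3A and EIF5B) and 0 lower, against a background of 8.02% of all entries, 4.08% higher and 3.94% lower. Of these, PARS2 and EIF4G1 were above background on 4 outer arrays and 0 inner arrays, passed the filter only through the group in which they were high, and are no support for a direction. The outer and inner values did not overlap for 4 entries, where 5.3% of all entries had such groups: PARS2, EIF4G1 and EIF3A lay above in outer cells, where 2.67% of all entries did (the first 2 with the same limit), and EIF4A2 lay below, where 2.63% did. A difference of 2-fold or more was seen upward for PARS2, EIF3J, AGO1 and EIF4EBP2 and downward for EIF2B1, 5 of 72, against 19% of all tested entries (9.72% upward and 9.25% downward). Across the 72 entries 41 were higher and 31 lower in outer cells, or 56.9% higher, with a median difference of 0.06. Of all tested entries 50.8% were higher, with a median difference of 0.01.

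**Figure D1:**
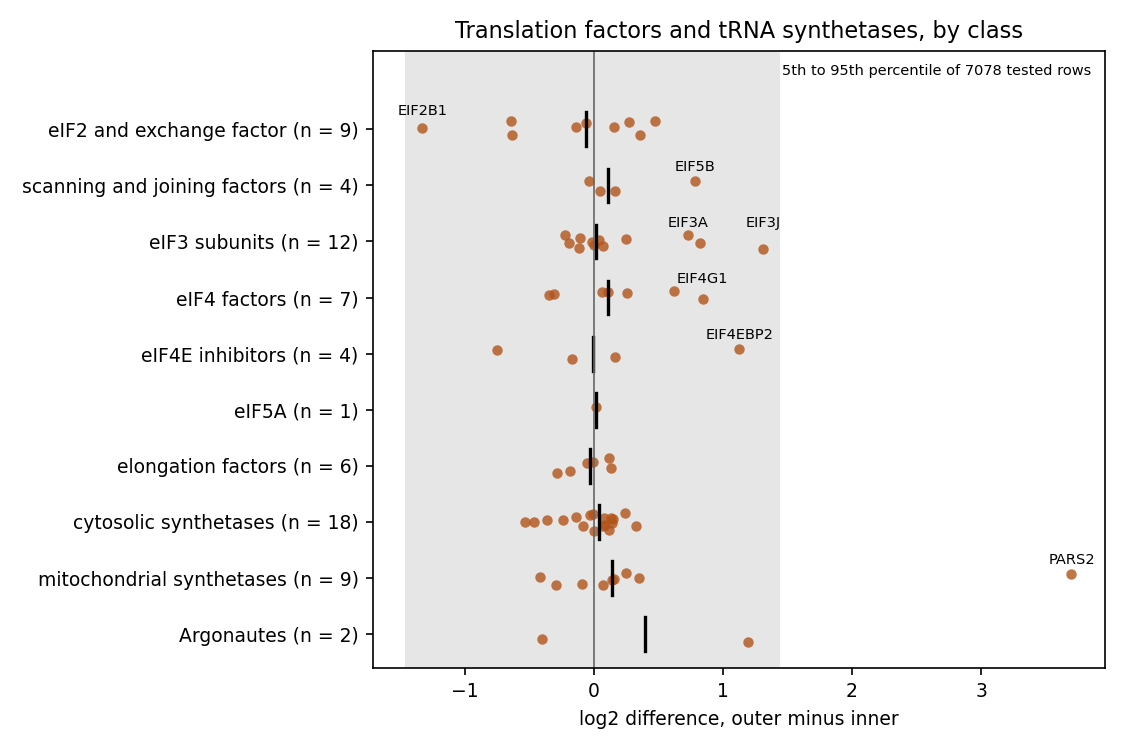
Difference in log2 intensity, outer minus inner, for the 72 tested entries (points) by class, with the class median as a black bar; the grey band spans the 5th to 95th percentile of all 7078 tested entries, -1.45 to 1.43. PARS2 alone lies outside the band, at 3.70, a value set against inner background readings.

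Most members were bright entries with small errors. The standard error of the difference had a median of 0.27 (range 0.18 to 1.35) for the members and 0.50 for all tested entries, and the median level was 11.1 for the members and 8.50 for all. The 95% interval of the difference lay wholly within a 2-fold change either way for 42 of 72 members (58.3%) and for 25.0% of all tested entries. Among entries with a mean level of at least 11 the share was 33 of 39 members and 854 of 1099 entries (77.7%). The deposited bead standard error, the error of a mean over beads and not their spread, had a median of 4.39% of the intensity. The coefficient of variation between arrays had a median of 22.3% in outer cells and 24.1% in inner cells. It was taken on intensities before correction and scaling, so it includes differences in brightness between whole arrays. Arrays with a level at least 2 log2 units under the entry's median occurred for 8 of the 72 members, of which 7 were among the 33 below a level of 11. By array, 0% to 5.56% of the members and 4.58% to 5.54% of all tested entries had such a level.

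**Figure D2:**
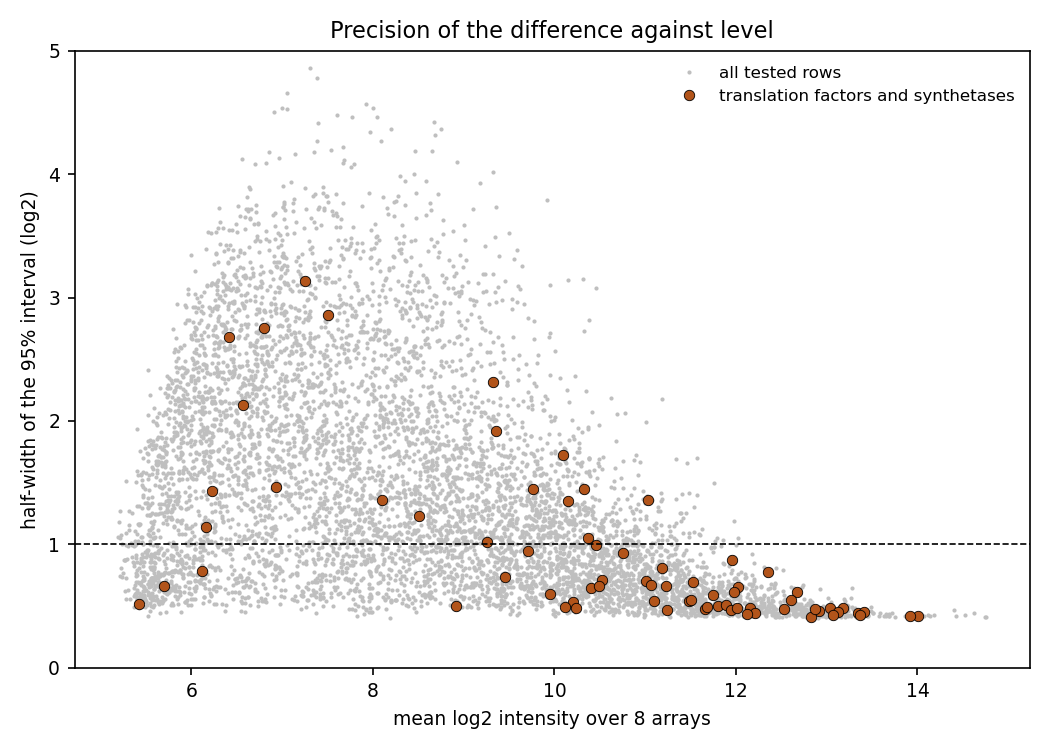
Half-width of the 95% interval of the outer minus inner difference (vertical axis, log2) against the mean log2 intensity over 8 arrays (horizontal axis) for all 7078 tested entries (grey) and the 72 members (orange); the dashed line marks a 2-fold change. Most members sit at the bright, narrow end of the cloud, where the half-width is below 1.

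Factors that deliver the initiator tRNA showed no common direction. This class holds the 3 subunits of eIF2, the GTPase that carries the initiator tRNA, the subunits of its exchange factor eIF2B, and eIF5, which triggers GTP hydrolysis by eIF2. Of its 11 entries 9 were tested, 4 higher and 5 lower in outer cells, with a median difference of -0.06. EIF2S1, the alpha subunit of eIF2 that stress kinases phosphorylate, had levels of 10.77, 8.23, 9.92 and 11.08 in outer cells, against 9.23, 10.15, 9.52 and 9.20 in inner cells. The outer arrays spanned more than the inner ones, and the difference of 0.47 had an interval of -0.97 to 1.92. The other eIF2 subunits, EIF2S2 and EIF2S3, differed by 0.16 and -0.14. EIF5 differed by -0.64 with an interval of -3.78 to 2.50, at a level above background on 2 outer arrays and 4 inner arrays.

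Among the eIF2B subunits the catalytic one, EIF2B5, had levels of 12.28, 11.50, 11.90 and 11.17 in outer cells, against 12.18, 12.54, 12.32 and 12.32 in inner cells. Outer replicate 1 fell inside the inner range and the other 3 outer arrays below it. The difference was -0.63 ± 0.28 (SE; limma, unadjusted p = 0.0575, adjusted p = 0.637). EIF2B1, a regulatory subunit, had 9.31, 5.79, 10.20 and 9.34 in outer cells, against 10.92, 8.63, 9.72 and 10.69 in inner cells. Outer replicate 2 was by far the lowest. The difference of -1.33 had an interval of -3.64 to 0.99 (adjusted p = 0.805) and was -0.37 without that array. EIF2B2, also regulatory, read 11.46, 11.70, 11.47 and 10.65 in outer cells, against 10.42, 10.99, 11.16 and 11.62 in inner cells, a difference of 0.27 with overlapping groups. EIF2B3, a subunit of the catalytic part, read 11.52, 10.77, 11.71 and 11.64 in outer cells, against 11.39, 10.84, 10.85 and 11.14 in inner cells. Its difference was 0.36 (interval -0.30 to 1.02), again with overlap, and EIF2B4 differed by -0.06. The subunits of this one complex thus had differences of both signs, and 1 of the 9 tested entries of the class had an interval within a 2-fold change.

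Of the scanning and joining factors, 3 of 4 tested entries were higher and 1 lower in outer cells, with a median difference of 0.11. EIF5B, the GTPase that joins the large ribosomal subunit, had levels of 9.96, 9.46, 10.16 and 9.80 in outer cells, against 8.32, 9.52, 9.26 and 9.14 in inner cells. Only outer replicate 2 fell within the inner range, and inner replicate 1 was the lowest of the 8 arrays. The difference was 0.79 ± 0.32 (SE; limma, unadjusted p = 0.0394, adjusted p = 0.610). EIF1, which guards start codon choice, had 12.36, 12.66, 12.59 and 12.84 in outer cells, against 12.61, 12.24, 12.46 and 12.47 in inner cells, a difference of 0.17. The groups overlapped. EIF1AX, the X-linked gene for eIF1A, had 10.22, 10.04, 10.22 and 10.59 in outer cells, against 10.35, 10.12, 10.14 and 10.27 in inner cells, a difference of 0.05 (interval -0.43 to 0.53). EIF1B, a close relative of EIF1, had 10.73, 10.43, 10.30 and 10.45 in outer cells, against 10.61, 9.96, 10.38 and 11.11 in inner cells, a difference of -0.04 (interval -0.70 to 0.63). The fifth entry, EIF1AY, lies on the Y chromosome and its values are not given.

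eIF3 is the largest initiation factor and holds the small subunit, the mRNA cap complex and the other factors together. All 12 of its entries were tested, 7 higher and 5 lower in outer cells, with a median difference of 0.02. EIF3A (listed as EIF3S10), the largest scaffold subunit, had levels of 11.85, 11.47, 12.15 and 11.90 in outer cells, against 11.26, 10.84, 11.09 and 11.27 in inner cells. Every outer array lay above every inner array. The difference was 0.73 ± 0.23 (SE; limma, unadjusted p = 0.0145, adjusted p = 0.491) and stayed between 0.63 and 0.85 in the alternatives tried. EIF3J (EIF3S1), a loosely bound subunit, had 4.52, 8.98, 7.77 and 7.02 in outer cells, against 4.46, 8.12, 4.38 and 6.09 in inner cells. These values jump between background and well above it within each group, and the difference of 1.31 had an interval of -1.37 to 3.99.

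Of the other subunits, EIF3B (EIF3S9), which binds eIF3a in the core, had 10.43, 10.41, 10.07 and 10.04 in outer cells, against 10.05, 10.08, 10.10 and 9.72 in inner cells, a difference of 0.25. EIF3E (EIF3S6) had 13.99, 13.86, 13.86 and 13.86 in outer cells, against 13.99, 14.07, 14.17 and 14.22 in inner cells, with a difference of -0.22 (interval -0.65 to 0.20). Its highest outer value equalled its lowest inner value to the printed precision. EIF3D, EIF3F, EIF3G, EIF3H, EIF3I, EIF3K and EIF3L had differences from -0.20 (EIF3K) to 0.07 (EIF3L), each with an interval inside a 2-fold change. EIF3C, a core subunit, differed by 0.82, with 3 arrays of each group above background and an interval of -1.31 to 2.96.

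The eIF4 factors unwind the mRNA and link its cap to the ribosome. Of 10 entries 7 were tested, 5 higher and 2 lower in outer cells, with a median difference of 0.11. EIF4E, the cap-binding protein, was above background on 0 of 8 arrays, as was its relative EIF4E3. EIF4E2, a cap-binding relative known for repressing mRNAs, differed by 0.11. EIF4A1, the main helicase, had levels of 13.92, 13.96, 13.99 and 13.92 in outer cells, against 13.96, 13.79, 13.96 and 13.83 in inner cells. The groups overlapped at a high level, and the difference of 0.06 had an interval of -0.35 to 0.48.

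EIF4A2, the second helicase, had levels of 11.56, 11.53, 11.57 and 11.36 in outer cells, against 11.68, 11.88, 11.63 and 12.21 in inner cells. Every outer array lay below every inner array, although the difference was small at -0.35 ± 0.21 (SE; limma, unadjusted p = 0.146, adjusted p = 0.746). EIF4B, which stimulates the helicase, had 12.71, 12.08, 12.69 and 12.33 in outer cells, against 12.80, 12.59, 12.64 and 13.02 in inner cells, a difference of -0.31, with overlap. The scaffold EIF4G1, which bridges the cap, the helicase and eIF3, had 5.73, 5.96, 6.04 and 5.65 in outer cells, against 4.67, 4.98, 5.08 and 5.28 in inner cells. The groups did not overlap, and the measured means were 5.85 in outer cells and 5.00 in inner cells (limma, adjusted p = 0.415).

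These EIF4G1 levels are near background: 4 outer arrays and 0 inner arrays exceeded it. The entry thus passed the filter only through the outer arrays. Its deposited detection p passed 0.01 on 0 arrays, which for an average of bead types need not mean a low level. EEF1D, likewise an average, also passed on 0 arrays, at a level of 11.21 in outer cells. Under the main background correction, and against the lowest level above background, outer cells were at least 1.34-fold higher. The entry averages more than one bead type, and a second EIF4G1 probe was above background on 0 arrays. With the background estimated from all entries the log2 difference was 0.04, so the bound holds only for the main correction. EIF4G2, a related scaffold that does not bind eIF4E, had 13.27, 13.03, 13.23 and 13.26 in outer cells, against 13.04, 12.94, 12.88 and 12.92 in inner cells. Only outer replicate 2 overlapped the inner range, and the difference was 0.25 (interval -0.17 to 0.68). EIF4G3, a close relative of EIF4G1, differed by 0.62 with an interval of -0.83 to 2.07.

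The proteins that hold eIF4E away from eIF4G were split, 2 higher and 2 lower, with a median difference of -0.00. EIF4EBP1, the best known mTOR target among them, had levels of 11.42, 11.53, 10.88 and 10.90 in outer cells, against 11.05, 11.10, 10.89 and 11.04 in inner cells. The inner arrays fell between the outer ones, and the difference was 0.16 (interval -0.38 to 0.70). EIF4EBP2 had 8.07, 9.20, 5.69 and 9.31 in outer cells, against 4.44, 7.58, 6.16 and 9.57 in inner cells, and its 1.13 difference had an interval of -1.73 to 3.98. EIF4EBP3 had 5.72, 6.80, 7.59 and 6.14 in outer cells, against 6.88, 5.97, 8.34 and 8.07 in inner cells, a difference of -0.75 with overlap. EIF4ENIF1, which carries eIF4E into the nucleus, had 10.30, 8.48, 10.05 and 9.66 in outer cells, against 9.60, 10.01, 9.90 and 9.66 in inner cells. Outer replicate 2 was the lowest, and the difference of -0.17 turned to 0.21 without it. EIF5A, the hypusine-bearing factor that helps the ribosome through difficult peptide bonds, had 5.72, 5.90, 5.58 and 5.62 in outer cells, against 6.17, 5.75, 5.82 and 5.01 in inner cells, a difference of 0.02. EIF5A lay near background, which 4 outer arrays and 3 inner arrays exceeded, and this limits what so small a difference can show. Its relative EIF5A2 was above background on 2 outer arrays and 0 inner arrays and was not tested.

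**Figure D3:**
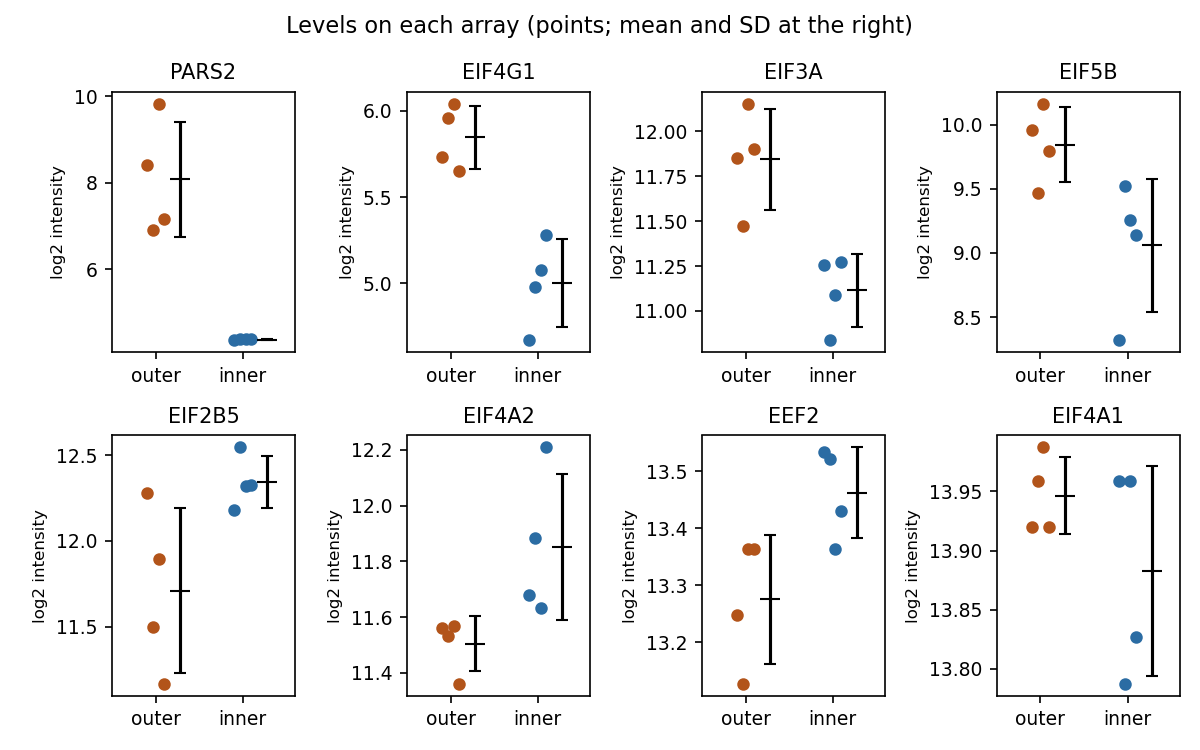
Log2 intensity on each of 4 outer (left, orange) and 4 inner (right, blue) arrays for 8 entries, with the group mean and SD beside the points; each panel has its own vertical range. The groups are apart for PARS2, EIF4G1 and EIF3A (outer above) and for EIF4A2 (outer below), and they overlap for EIF5B, EIF2B5, EEF2 and EIF4A1.

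Of the elongation factors, 2 of 6 tested entries were higher and 4 lower in outer cells, with a median difference of -0.03. EEF2, the translocase, had levels of 13.25, 13.13, 13.36 and 13.36 in outer cells, against 13.53, 13.52, 13.36 and 13.43 in inner cells. The outer arrays reached no higher than the lowest inner array, within the printed precision, and the difference was -0.19 (interval -0.62 to 0.24; limma, adjusted p = 0.857). EEF1A1, which delivers charged tRNAs, had 12.66, 12.62, 12.44 and 11.67 in outer cells, against 12.74, 12.08, 12.75 and 11.86 in inner cells. In both groups replicate 4 was the lowest, and the difference was -0.01. The tissue-restricted EEF1A2 was above background on 0 arrays.

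The exchange factor subunit EEF1B2 has a pair of entries. One, averaging more than one bead type, had 12.00, 12.19, 11.91 and 12.21 in outer cells, against 12.08, 11.72, 11.83 and 12.17 in inner cells, a difference of 0.13. The other had 11.56, 8.87, 9.18 and 10.42 in outer cells, against 10.62, 10.16, 10.19 and 10.20 in inner cells, a difference of -0.29. The entries of this gene thus differed in sign, each with overlapping groups. EEF1D, another exchange subunit, differed by -0.05. EEF1E1, which sits in the multi-synthetase complex, had 11.44, 12.38, 12.34 and 11.97 in outer cells, against 11.82, 12.10, 11.82 and 11.91 in inner cells, a difference of 0.12 (interval -0.50 to 0.74) with the inner arrays inside the outer range.

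The cytosolic synthetases had no common direction. Of 19 entries 18 were tested, 10 higher and 8 lower in outer cells, with a median difference of 0.04 and a range from -0.53 (AARS) to 0.33 (LARS), and 14 of the 18 intervals lay within a 2-fold change. GARS, the glycyl enzyme, had levels of 12.95, 13.03, 13.04 and 12.64 in outer cells, against 13.00, 12.75, 12.94 and 12.99 in inner cells, a difference of -0.00. EPRS, which charges both glutamate and proline tRNAs, had 11.96, 12.08, 11.82 and 11.50 in outer cells, against 11.82, 11.94, 11.65 and 11.62 in inner cells, a difference of 0.08. Both pairs of groups overlapped over most of their range.

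The widest differences in this class were downward. AARS, the alanyl enzyme, had 9.81, 9.35, 10.77 and 10.84 in outer cells, against 11.12, 10.29, 11.17 and 10.31 in inner cells, with an interval of -1.52 to 0.46. VARS, the valyl enzyme, had 5.97, 6.28, 5.80 and 5.47 in outer cells, against 5.54, 6.54, 6.49 and 6.83 in inner cells, a difference of -0.47. This entry averages more than one bead type, and with the background from all entries its difference was -0.04. Its deposited detection p passed 0.01 on 1 of 8 arrays, which for such an average need not mean a low level. DARS, the aspartyl enzyme, had 12.64, 12.46, 12.64 and 12.25 in outer cells, against 12.97, 13.22, 12.28 and 12.97 in inner cells. Here inner replicate 3 alone dipped into the outer range, and the difference was -0.37 (interval -0.98 to 0.25; limma, adjusted p = 0.795). LARS, the leucyl enzyme that also senses leucine for mTOR, had 12.67, 11.03, 12.37 and 12.42 in outer cells, against 11.80, 11.62, 11.75 and 12.00 in inner cells. Outer replicate 2 was the lowest of the 8 and the other outer arrays were the highest, with an adjusted p of 0.886. WARS, the tryptophanyl enzyme that interferon induces, had 11.91, 11.14, 9.23 and 11.60 in outer cells, against 11.33, 10.53, 11.36 and 11.19 in inner cells. Its difference of -0.13 turned to 0.44 without outer replicate 3. The 11 synthetases not named in detail, CARS, HARS, IARS, KARS, MARS, NARS, QARS, RARS, SARS, TARS and YARS, had differences from -0.24 to 0.24.

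Mitochondrial synthetases serve the translation of the mitochondrial genome. Of 10 entries 9 were tested, 6 higher and 3 lower in outer cells, with a median difference of 0.14. PARS2, the prolyl enzyme, had levels of 8.41, 6.90, 9.82 and 7.17 in outer cells, against 4.36, 4.38, 4.38 and 4.38 in inner cells. All outer arrays were above background and no inner array was, so the inner values are background readings and the entry passed the filter only through the outer arrays. The measured means were 8.08 in outer cells and 4.37 in inner cells, which gives no size for the difference. Under the main background correction, and against the lowest level above background, outer cells were at least 6.29-fold higher. With the background estimated from all entries the log2 difference was 0.66, so this bound holds only for the main correction. The adjusted p was 0.179 in limma (0.0768 to 0.687 in the alternatives tried).

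The other mitochondrial synthetases given here had overlapping groups. LARS2 had 9.19, 7.26, 8.91 and 9.39 in outer cells, against 7.49, 8.61, 8.75 and 8.50 in inner cells, a difference of 0.35. IARS2 had 12.95, 12.96, 13.05 and 12.82 in outer cells, against 12.94, 12.93, 12.83 and 12.46 in inner cells, a difference of 0.16. YARS2 differed by 0.14, NARS2 by -0.09, SARS2 by -0.29 and FARS2 by -0.42. The entry labelled HARS2 differed by 0.07; RefSeq lists that symbol as an older name of DTD1 too, so its gene is uncertain. MARS2 was above background on 1 outer array and 0 inner arrays and was not tested.

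Of the Argonaute entries 2 of 5 were tested. AGO1 (EIF2C1) had 7.32, 7.88, 4.46 and 9.93 in outer cells, against 8.12, 5.78, 4.83 and 6.07 in inner cells, a difference of 1.20 with an interval of -1.56 to 3.95. AGO2 (EIF2C2), the slicing Argonaute, had 6.57, 6.30, 4.57 and 6.40 in outer cells, against 6.70, 6.55, 5.71 and 6.48 in inner cells, a difference of -0.40. In both genes replicate 3 was the lowest array of each group.

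The bases at the annotated transcription start separate a subset of these genes. A pyrimidine start was taken as a C at the annotated start followed directly by at least 4 further C or T bases, the form of the terminal oligopyrimidine tract through which mTOR signalling controls translation. In RefSeq (GRCh38.p14) 10 of 55 matched member genes (18.2%) had it, as did 5.14% of 27305 genes. The match covered 56 of 70 tested entries without the Argonautes. The windows below are shown because these genes form the subset compared next. Each gives 10 bases before the start and 20 from the start on, with the pyrimidine run in capitals:
EEF1A1 (chr6:73521013-73521042, minus strand): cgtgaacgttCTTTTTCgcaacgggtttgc
EEF1B2 (chr2:206159885-206159914, plus strand): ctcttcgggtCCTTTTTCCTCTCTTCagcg
EEF2 (chr19:3985444-3985473, minus strand): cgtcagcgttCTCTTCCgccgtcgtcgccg
EIF2S3 (chrX:24054946-24054975, plus strand): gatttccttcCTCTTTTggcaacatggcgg
EIF3D (chr22:36529147-36529176, minus strand): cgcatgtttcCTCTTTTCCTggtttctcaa
EIF3F (chr11:7987327-7987356, plus strand): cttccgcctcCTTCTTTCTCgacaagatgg
EIF3K (chr19:38619178-38619207, plus strand): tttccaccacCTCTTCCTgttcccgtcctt
EIF4A2 (chr3:186783567-186783596, plus strand): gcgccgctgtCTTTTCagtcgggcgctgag
EIF4B (chr12:53006446-53006475, plus strand): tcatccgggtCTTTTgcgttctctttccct
QARS1 (chr3:49104738-49104767, minus strand): gcctaagtttCTTTTagtttccggtgtctc

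The 11 entries of these 10 genes, which encode elongation factors, eIF3 subunits and 2 eIF4 factors among others, were 3 higher and 8 lower in outer cells, with a median difference of -0.14 and a range from -0.35 (EIF4A2) to 0.13 (EEF1B2). The 45 entries without the start were 29 higher and 16 lower, with a median of 0.09. The higher ones include PARS2 and EIF4G1, which passed the filter only through the outer arrays and are no support for a direction. Both have a mean level below 11. Among entries with a level of at least 11, 7 of 10 with the start were lower (median -0.11), as were 6 of 19 without it (median 0.09). Of all tested entries at that level 561 of 1099 (51.0%) were lower, with a median of -0.007. The median for the entries with the start stayed between -0.18 and -0.05 in the alternatives tried, and was -0.05 without inner replicate 3. No entry with the start passed the test on its own, and the difference between the sets was not tested. Cytosolic ribosomal protein genes, the largest family with such starts, are no members: of 73 tested entries 26 were higher and 47 lower in outer cells, with a median of -0.07 and 0 past the adjusted threshold.

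**Figure D4:**
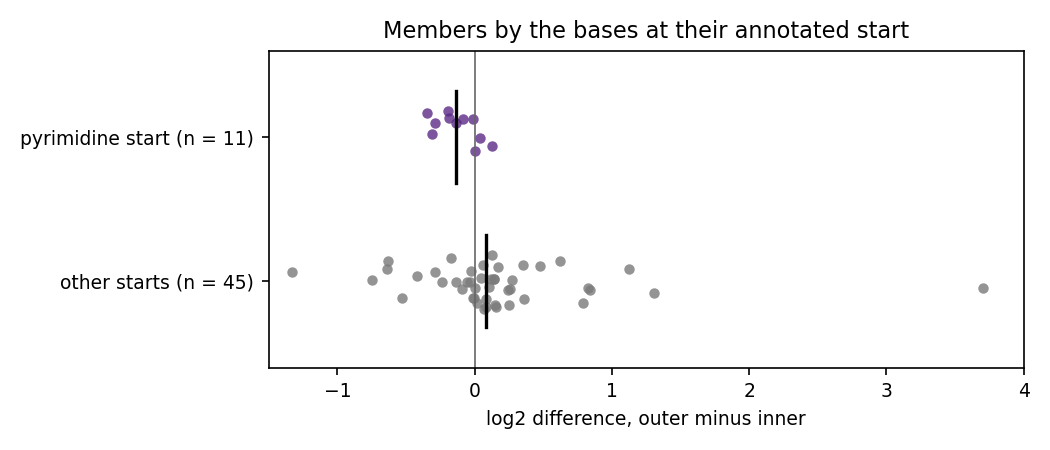
Log2 difference, outer minus inner, of members with a pyrimidine start (n = 11 entries) and with other starts (n = 45 entries); points are entries and black bars medians. The medians are -0.14 and 0.09; the median levels of the sets are 12.1 and 10.5. The other starts include PARS2 and EIF4G1, which passed the filter only through the outer arrays.

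For the synthetases the promoters (250 bases before to 50 after the start) were searched for TGATGNAA, or TTNCATCA on the other strand, the core of the element that ATF4 binds in amino acid stress. It was present in 8 of 21 matched synthetase genes (38.1%) and in 4.46% of all genes with a promoter of that length. A match is a run of letters and not a shown binding site. The examples, with the match in capitals, come from AARS1, the member with the lowest difference in its class, and from GARS1 and IARS1, with differences of -0.00 and 0.15:
AARS1 (chr16:70289675-70289704, minus strand): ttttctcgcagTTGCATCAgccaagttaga
GARS1 (chr7:30594834-30594863, plus strand): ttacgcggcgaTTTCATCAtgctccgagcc
IARS1 (chr9:92293692-92293721, minus strand): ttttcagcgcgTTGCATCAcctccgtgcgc
The 8 entries with the motif were 5 higher and 3 lower in outer cells, with a median of 0.07. Those without it were 7 higher and 6 lower, with the same median. The higher ones without it include PARS2, which passed the filter only through the outer arrays.

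The partner list of release, recycling and poly(A)-binding factors, regulatory kinases and mitochondrial factors had 28 tested entries, 13 higher and 15 lower in outer cells, with a median difference of -0.04 and 0 past the adjusted threshold. MTIF2, the mitochondrial initiation factor that brings the first tRNA to the mitochondrial ribosome, averaged 8.87 ± 1.19 in outer cells and 10.04 ± 0.24 in inner cells (SD), a difference of -1.17 (limma, unadjusted p = 0.0741, adjusted p = 0.658). PAIP2, an inhibitor of poly(A)-binding protein, differed by -1.35 at a level above background on 1 outer array and 3 inner arrays.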

How the data were processed

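The authors deposited, per the file headers, unsubtracted mean bead intensities, detection p-values, bead standard errors and bead numbers for each entry of an Illumina HumanRef-8 v2.0 array. Their scaled columns were deposited as the ratio of each intensity to its array's mean, as the values show; these served as an alternative. No source used here names the scanner software.

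Detection p-values of 19053 entries lay on steps of one part in 708; of the 1535 others, 1530 had fractional bead numbers and so average more than one bead type. Background parameters were therefore taken from the entries on the steps only. Intensities were corrected by normexp with an offset of 16, quantile normalised and log2-transformed. Entries above the array's background (the intensity that best separates a deposited p-value under 0.01) on at least 4 arrays were tested with limma 3.58.1 in R 4.3.3 (lmFit, eBayes, group only), with Benjamini-Hochberg adjustment over 7078 entries; 1 entry without beads was dropped. The fit was checked on simulated data, independent normal values with added shifts, which do not carry the falls to background seen here. For an entry above background in 1 group only, the least fold uses the higher of the lowest level above background and the entry's own on each array of the other group. The number of arrays limits the precision.

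The members and lists were chosen with earlier results of these data known. Values on all arrays were kept for members past the adjusted threshold, up to 4 per class by unadjusted p, those whose groups do not overlap and a list of fixed genes (EIF2S1, EIF4E, EIF4G1, EIF4A1, EIF4EBP1, EIF5A, EIF6, EEF1A1, EEF2, EPRS, WARS, GARS, AARS); EIF6 is listed under another name and is no member. Levels of Y-linked genes were left out, and 1 member that the rule names is not reported here. Deviations of same-numbered outer and inner arrays were only weakly correlated, and the fit did not pair them. Alternatives changed the background, scaling, filter, test and arrays used.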

Additional observations from a re-analysis of the deposited data

Results flagged for a closer look

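In 6 of 80 groups of 4 arrays, 1 array lay far from the other 3 by Dixon's criterion; chance gives about 1 in 20 groups. AGO2 was 4.57 on outer replicate 3 and 6.30 to 6.57 on the other outer arrays. EIF3E was 13.99 on outer replicate 1 and 13.86 on each of the others. Before correction its intensities were 16616.6 on outer replicate 1 and 14831.3, 14503.5 and 14347.6 on the others. Quantile normalisation gave the latter the same level, so this flag rests on tied values. EIF3B was 9.72 on inner replicate 4 and 10.05 to 10.10 on the other inner arrays. EIF4A2 was 11.36 on outer replicate 4 and 11.53 to 11.57 on the others. EIF4G2 was 13.03 on outer replicate 2 and 13.23 to 13.27 on the others. The single-type EEF1B2 entry was 10.62 on inner replicate 1 and 10.16 to 10.20 on the others.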

How the results depend on the processing

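No member passed the adjusted threshold in any of the 19 other settings, and 30 of 40 members named with values kept their sign in every setting that gave them a value (17 to 20 each). Over all tested entries the number past the threshold ran from 0 to 6, against 4 as reported; it was 0 with entries above background on all 8 arrays, 1 with the background from all entries, 2 with saddle-point normexp and 2 with no filter. Same-numbered outer and inner arrays had correlations of deviations of 0.034, 0.031, 0.024 and -0.011 for replicates 1 to 4. Arrays with different numbers had correlations from -0.036 to 0.019. All of these were small, and whether the numbers pair the arrays was not tested. With the replicate number as a block 0 entries and 0 members were past the threshold. EIF5A was -0.00172 with the background from all entries, -0.00169 with saddle-point normexp, -0.00954 under median scaling, -0.0388 under cyclic loess and -0.0215 with the authors' scaled values, so its class, 1 entry, was 0% higher in outer cells in each of these, and without the filter the class median was 0.455. EEF1A1 was 0.0343 under median scaling, 0.00181 under cyclic loess and 0.00484 with the authors' scaled values, GARS 0.0181 and EIF1B 0.00959 under median scaling, and EEF1B2 -0.0786 as the mean of its entries. The share higher in outer cells was 50% for elongation factors under median scaling, cyclic loess and the authors' scaled values, 100% for scanning and joining factors and 62.5% for all members under median scaling, and 60% for eIF4 factors without the filter. The cause was not tested. Leaving out each array in turn gave ranges of differences of -0.62 to 0.061 for AGO2, -0.060 to 0.086 for GARS, -0.45 to 0.44 for WARS, -0.39 to 0.21 for EIF4ENIF1, -0.21 to 0.18 for EIF5A, -0.18 to 0.21 for EEF1A1, -0.80 to 0.092 for the single-type EEF1B2 entry, -0.058 to 0.12 for EIF1AX and -0.22 to 0.16 for EIF1B. It gave class medians of -0.21 to 0.14 for the eIF2 class, 0.031 to 0.17 for scanning and joining factors, -0.022 to 0.076 for eIF3 subunits, 0.032 to 0.29 for eIF4 factors, -0.16 to 0.13 for eIF4E inhibitors, -0.097 to 0.055 for elongation factors, -0.025 to 0.062 for cytosolic synthetases, -0.015 to 0.17 for mitochondrial synthetases, -0.098 to 1.12 for Argonautes and 0.017 to 0.066 for all members. The share higher ran from 50% to 100% for Argonautes, 33.3% to 66.7% for eIF3 subunits, 57.1% to 71.4% for eIF4 factors, 50% to 75% for eIF4E inhibitors, 0% to 100% for eIF5A, 33.3% to 66.7% for elongation factors, 44.4% to 77.8% for mitochondrial synthetases, 50% to 100% for scanning and joining factors and 51.4% to 61.1% for all members. Leaving entries that average several bead types out of the classes was chosen after seeing the data; it gave medians of 0.050 for the eIF2 class, 0.17 for scanning and joining factors, 0.071 for cytosolic synthetases and -0.099 for elongation factors (25% higher), and left the share of members higher at 57.6%. Signal near background limits PARS2, EIF4G1, VARS, EIF3J, EIF3C, EIF5, EIF5A, EIF4EBP2, AGO1 and AGO2, none above background on all 8 arrays. With the background from all entries the difference was 0.22 for EIF4EBP2 and -0.15 for EIF4EBP3.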

Other observations

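Some translation factors carry other names in the table and so are not among the members; this list was drawn up after the table was seen. Of its 10 tested entries 7 were higher and 3 lower in outer cells, with a median difference of 0.08 and 0 past the adjusted threshold. The entry for the mitochondrial histidyl synthetase (listed as HARSL) averaged 10.28 ± 0.09 in outer cells and 9.74 ± 0.16 in inner cells (SD, n = 4 each), with every outer array above every inner array, a difference of 0.54 (limma, unadjusted p = 0.0248, adjusted p = 0.556). It was the 1 entry of the 10 with such groups. Of all tested entries 2.67% had all outer arrays above all inner arrays, and 4.08% were higher at an unadjusted limma p under 0.05. EIF6, which keeps the ribosomal subunits apart and is listed as ITGB4BP, averaged 12.27 ± 0.08 in outer cells and 12.24 ± 0.19 in inner cells, and EIF3M averaged 12.47 ± 0.04 in outer cells and 12.39 ± 0.07 in inner cells.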
